A study of Mus musculus with 6 samples.

Results

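MHC class I presentation and the immunoproteasome were followed through 10 genes, chosen by name for their role: *H2-K1*, *H2-D1*, *B2m*, *Tap1*, *Tap2*, *Tapbp*, *Nlrc5*, *Psmb8*, *Psmb9* and *Psmb10*. All 10 were among the 34745 genes in the files, and all 10 reached the minimum level for testing, a mean FPKM of 1. A gene was taken where its symbol was present in the files of all 6 libraries. FPKM is the number of reads per gene scaled to the length of the gene and to the total of the library.

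The study asked how the loss of Scd-1, an enzyme that makes monounsaturated fatty acids, alters effector CD8+ T (Teff) cells. The series holds 3 WT and 3 Scd-1-/- libraries of Teff RNA. WT cells came from C57BL/6J mice and Scd-1-/- cells from B6.129-Scd1tm1Ntam/J mice, all of them males of 6 to 8 weeks. CD8+ T cells were isolated from the spleen with a kit. Both groups were then given 5 μg/mL anti-CD3, 0.5 μg/mL anti-CD28 and 100 U/mL IL-2 for 3 days, were washed, were kept in IL-2 for 3 more days, and were harvested on day 6. The WT mice were purchased whereas the Scd-1-/- mice were donated and carry the allele in every cell, so genotype and colony cannot be told apart here. The labels do not say whether the libraries of a group came from separate mice, so that p-values measure only the spread between these libraries. RNA extraction is given as column-based with a stranded total RNA kit in the methods, and as Trizol with poly(A) RNA and a different kit in the labels.

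Class I molecules show peptides from inside the cell to CD8+ T cells, and a T cell carries them on its own surface as well. A heavy chain (*H2-K1* or *H2-D1*) pairs with the light chain β2-microglobulin (*B2m*), and peptides cut by the proteasome are pumped to it by the TAP transporter. Interferons are known to raise all of these genes through transcription factors such as IRF1 and the transactivator NLRC5, and they swap the constitutive catalytic subunits of the proteasome for the immunosubunits.

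Libraries held between 14034479 and 15866216 counts, and the 10 genes took between 1.02% and 1.15% of them. *Scd1*, the targeted gene, had 4272, 3074 and 3761 counts in WT replicates 1, 2 and 3 against 30, 36 and 20 counts in Scd-1-/- replicates 1, 2 and 3. Replicate 1 of both genotypes stood apart from replicates 2 and 3 on the first principal component, which held 45.0% of the variance, and genotype was separated on the second, which held 36.0%. The CD8 T cell markers *Cd3d*, *Cd3e*, *Cd3g*, *Cd8a* and *Cd8b1* were present in every library, and their summed FPKM ranged from 1468 to 1808 in WT and from 1397 to 1619 in Scd-1-/-. In bulk RNA, fewer cells of a type and less RNA per cell cannot be told apart.

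*Tap1*, *Nlrc5* and *Psmb9* were lower in every Scd-1-/- library than in any WT library, *B2m* was higher, and the groups overlapped for the other 6 genes. None of the 10 passed the study's thresholds (1 or more on the log2 scale in either direction, and a p under 0.001), which 0.738% of the 9627 genes tested passed. None had an adjusted p under 0.05 either (edgeR's quasi-likelihood test, Benjamini-Hochberg adjustment), against 0.114% of all genes. At an unadjusted p under 0.05, 3 of the 10 were lower in Scd-1-/- (*Tap1*, *Nlrc5* and *Psmb9*; 4.68% of all genes) and 1 was higher (*B2m*; 5.42%). The count of lower genes among the 10 was 5 without WT replicate 1 (6.97% of all genes) and 2 without WT replicate 2 (2.61%). It was 1 when replicate 2 (3.02%) or replicate 3 (2.33%) of Scd-1-/- was left out. The count of higher genes was 0 in the fits that left out replicate 2 or 3 of WT (2.95% and 3.79% of all genes) and replicate 2 or 3 of Scd-1-/- (3.59% and 3.2%). These were also the 4 genes with no overlap between the groups, 3 of them lower (7.66% of all genes) and 1 higher (8.4%). The median log2 fold change of the 10 genes was -0.17, with 9 of 10 below 0, while that of all genes tested was -0.00051, with 50.1% below 0. WT replicate 2 weighed on both values. Without it the median of the 10 genes was -0.08, with 6 of 10 below 0 (4858 of the 9627 genes tested). Without WT replicate 1 that median was -0.27, with 8 of 10 below 0 (4634 of all genes). Without Scd-1-/- replicate 3, 8 of 10 were below 0 as well (4824 of all genes).

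With the replicate number as a block, 2 of the 10 genes had an adjusted p under 0.05 in edgeR's quasi-likelihood test, *Tap1* and *Nlrc5*, both lower in Scd-1-/-. The same fit called 2.06% of all genes as lower, or 4.7% in either direction, so the number of calls rose across all genes. DESeq2 called 1 of the 10 by adjusted p, *Nlrc5*, and 1.09% of all genes as lower.

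**Figure D1:**
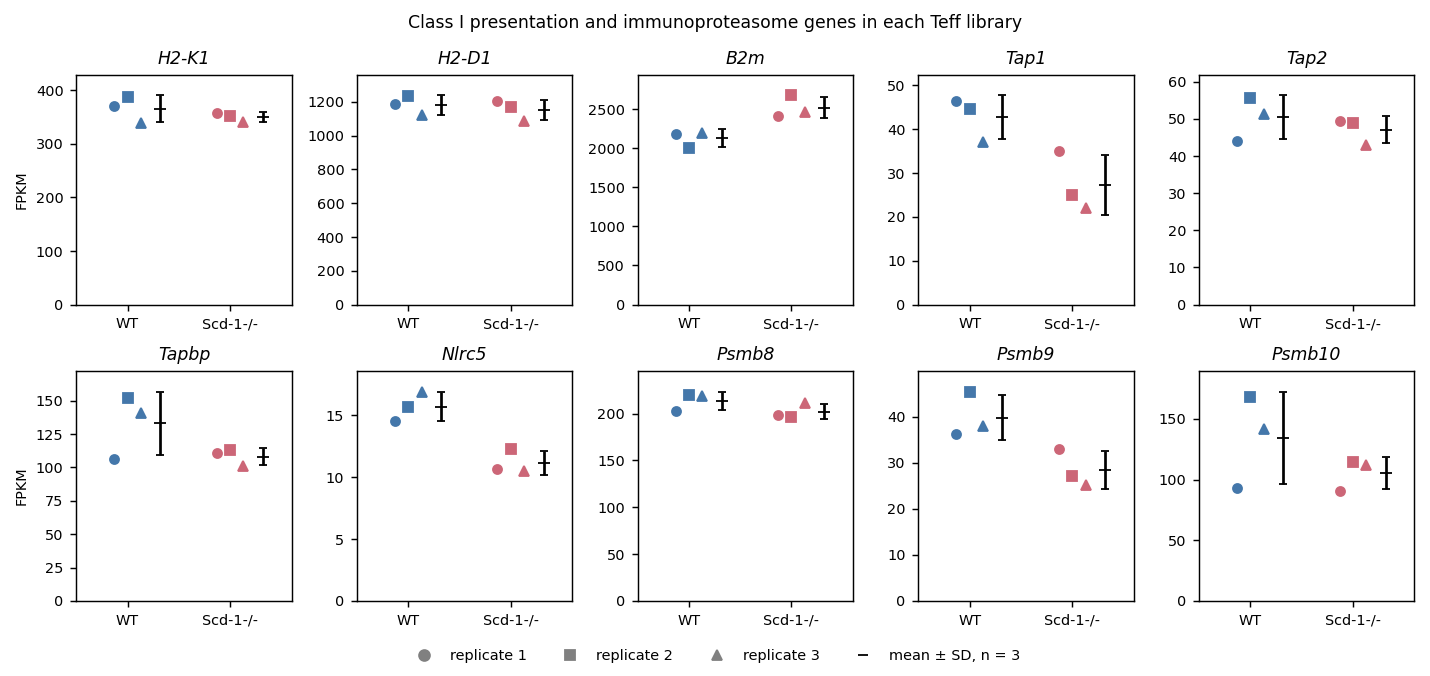
FPKM (vertical axes, from 0) of the 10 genes in each of the 3 WT (blue) and 3 Scd-1-/- (red) libraries, with a symbol for each replicate number and black bars for the mean ± SD. The groups are apart for *Tap1*, *Nlrc5* and *Psmb9*, which are lower in Scd-1-/-, and for *B2m*, which is higher, and they overlap for the other 6 genes.

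The classical heavy chains differed between the genotypes by less than the standard error. *H2-K1* (chr17:33996017-34000347, minus strand, GRCm38) stood at 370, 388 and 339 FPKM in WT replicates 1, 2 and 3 and at 358, 352 and 340 FPKM in the Scd-1-/- replicates. *H2-D1* (chr17:35262730-35267499, plus strand) stood at 1185, 1236 and 1123 FPKM in WT and at 1204, 1168 and 1086 FPKM in Scd-1-/-. The groups overlapped for both genes, and replicate 3 was the lowest library of each genotype for both. Fitted log2 fold changes were -0.04 ± 0.110 (SE) for *H2-K1* (edgeR adjusted p = 0.941) and -0.01 ± 0.108 for *H2-D1* (adjusted p = 0.982).

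*H2-K1* and *H2-D1* are alike in sequence, and the longest open reading frames of their transcripts were 90.5% identical, so the counting could have divided reads between them and their neighbours. The counts of 15 heavy chain genes of the *H2-K*, *H2-D*, *H2-Q* and *H2-T* series were therefore added. The sum does not depend on how reads were divided among these 15. Reads given to other genes or left uncounted would still change it. The sum was 9465, 9183 and 8036 CPM (counts scaled to the library total, with TMM factors) in WT and 9174, 8296 and 8046 CPM in Scd-1-/-. The difference on the log2 scale was -0.06, and an exact two-sided permutation test gave p = 0.7, where 3 libraries against 3 cannot give a p under 0.1. It was -0.017, -0.038 and -0.13 without WT replicates 1, 2 and 3 in turn, -0.12 and -0.024 without Scd-1-/- replicates 1 and 3 in turn, and -0.023 for *H2-K1* and *H2-D1* alone.

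*B2m* (chr2:122147686-122153083, plus strand), the shared light chain, was the most abundant of the 10 genes per length and the one with the opposite direction. Its level was 2186, 2003 and 2201 FPKM in WT and 2419, 2676 and 2463 FPKM in Scd-1-/-. Every Scd-1-/- library was above every WT library. This was a log2 fold change of 0.26 ± 0.107, or 1.20-fold, with an adjusted p of 0.466 in edgeR's test. Relative to its heavy chains, *B2m*/(*H2-K1* + *H2-D1*) was 1.41, 1.23 and 1.51 in WT and 1.55, 1.76 and 1.73 in Scd-1-/-. The log2 ratio was higher by 0.28 in Scd-1-/-, with no overlap between the groups and p = 0.1, the smallest an exact permutation test can give here. This ratio was chosen after the values were seen.

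The promoters of the 3 surface chains are shown because heavy and light chain genes hold the same kinds of control element. In the RefSeq promoter table (GRCm38.p6), which had entries for 8 of the 10 genes, 250 bases before the start were searched on both strands for an ISRE (GAAA, any 2 bases, GAAA; bound by IRF factors), a GAS (TTC, any 3 bases, GAA; an interferon-responsive element), an X2 element (TGACG, bound by CREB and ATF factors), a Y box (CCAAT, bound by NF-Y) and a κB site (GGG, any 2 bases, TT, any base, CC; bound by NF-κB). These were present in 2.98%, 7.02%, 17.77%, 33.85% and 4.11% of all 32851 promoters in the table. Capitals mark the matches in the 150 bases before the start of *H2-K1* (chr17:34000348-34000497, minus strand) and of *B2m* (chr2:122147537-122147686, plus strand), and in 30 bases of the *H2-D1* promoter around its κB site (chr17:35262913-35262942) and around its X2 element (chr17:35262981-35263010).
H2-K1: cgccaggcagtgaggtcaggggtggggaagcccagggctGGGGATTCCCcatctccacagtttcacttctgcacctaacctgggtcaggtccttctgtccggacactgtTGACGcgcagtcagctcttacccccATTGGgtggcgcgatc
B2m: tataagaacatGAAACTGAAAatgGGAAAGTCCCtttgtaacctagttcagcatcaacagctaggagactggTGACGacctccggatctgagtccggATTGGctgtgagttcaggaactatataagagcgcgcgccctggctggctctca
H2-D1 κB site: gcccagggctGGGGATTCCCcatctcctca
H2-D1 X2 element: ccgggacactgaTGACGcgctggcaggtct

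*H2-K1* and *B2m* held a κB site, an X2 element and a Y box in that order. *B2m* also held an exact match to the ISRE pattern, 139 bases before its start. *H2-K1* had its κB site 111 and its X2 element 41 bases before the start, and *H2-D1* held the same κB letters 171 and its X2 element 101 bases before the start. These matches are letters in a window and were not tested as binding sites. Only exact matches were counted, so a promoter with no match, such as *H2-K1* for the ISRE, can still hold a site with other letters.

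*Nlrc5* (chr8:94434356-94527272, plus strand), the class I transactivator, acts through the X and Y elements. It was the lowest expressed of the 10 genes, at 14.5, 15.7 and 16.9 FPKM in WT and 10.6, 12.3 and 10.5 FPKM in Scd-1-/-. All 3 Scd-1-/- libraries lay below all 3 WT libraries. Its log2 fold change was -0.47 ± 0.123 with an adjusted p of 0.240 in edgeR's test, and -0.47 with an adjusted p of 0.0407 with the replicate block. Within same-numbered libraries the log2 difference was -0.45, -0.34 and -0.62. Its annotation overlaps 9330175E14Rik by 748 bases on the opposite strand. That gene had between 195 and 479 counts.

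*Tap1* and *Tap2* encode the partner chains of the transporter that carries peptides into the endoplasmic reticulum. *Tap1* (chr17:34187553-34197225, plus strand) was at 46.4, 44.7 and 37.1 FPKM in WT and at 35.0, 25.1 and 21.96 FPKM in Scd-1-/-. *Tap2* (chr17:34203527-34216321, plus strand) was at 44.1, 55.8 and 51.5 FPKM in WT and at 49.5, 48.9 and 43.1 FPKM in Scd-1-/-. The highest Scd-1-/- library for *Tap1* was still below the lowest WT library, whereas the groups overlapped for *Tap2*.

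For *Tap1* the log2 fold change was -0.62 ± 0.199, or 0.649-fold, with an adjusted p of 0.350 in edgeR's test. With the replicate block it was -0.64 with an adjusted p of 0.0208, and within same-numbered libraries it was -0.41, -0.83 and -0.69. That of *Tap2* was -0.07 ± 0.131 (adjusted p = 0.911). The ratio *Tap1*/*Tap2*, chosen after the values were seen, was 1.05, 0.802 and 0.722 in WT and 0.708, 0.513 and 0.510 in Scd-1-/-. It was lower in each of the 3 same-numbered pairs, and the log2 difference of -0.57 had p = 0.1 in the exact permutation test, the smallest it can give. The open reading frames of *Tap1* and *Tap2* were 58.7% identical.

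*Tapbp* (chr17:33915899-33929292, plus strand) encodes tapasin, the chaperone that bridges the transporter and the heavy chain. It had 106, 152 and 141 FPKM in WT and 110, 113 and 101 FPKM in Scd-1-/-. WT replicate 1 sat among the Scd-1-/- libraries, and WT replicates 2 and 3 were above all of them. Across all libraries the log2 fold change was -0.27 ± 0.147 (edgeR adjusted p = 0.590). It was -0.17 without WT replicate 2 and -0.40 without WT replicate 1. The annotation of *Tapbp* overlaps *Zbtb22* by 3422 bases on the same strand, and *Zbtb22* had between 614 and 1110 counts.

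The immunosubunits replace the constitutive catalytic subunits when the immunoproteasome is built. *Psmb9* (LMP2; chr17:34181987-34187764, minus strand) was at 36.2, 45.4 and 37.9 FPKM in WT and at 33.0, 27.1 and 25.1 FPKM in Scd-1-/-. Here again no Scd-1-/- library reached the WT libraries. For *Psmb9* the log2 fold change was -0.47 ± 0.156 with an adjusted p of 0.373 in edgeR's test. *Psmb8* (LMP7; chr17:34197721-34201454, plus strand) was at 203, 220 and 219 FPKM in WT and at 199, 196 and 212 FPKM in Scd-1-/-, with overlapping groups and a log2 fold change of -0.06 ± 0.105 (adjusted p = 0.917).

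*Psmb10* (MECL-1; chr8:105935735-105938444, minus strand) had the widest standard error of the 10 genes. It was at 92.8, 168 and 142 FPKM in WT and at 90.6, 114 and 112 FPKM in Scd-1-/-. Replicate 1 was the lowest library of both genotypes. Its log2 fold change was -0.32 ± 0.217 (edgeR adjusted p = 0.690), and it was -0.52 without WT replicate 1 and -0.12 without WT replicate 2.

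*Tap1* and *Psmb9* lie head to head, with 225 bases between their starts in the RefSeq table, and their annotations overlap by 212 bases on opposite strands. Both promoters held the same X2 element and Y box on that stretch, and the X2 element is shown for *Tap1* at chr17:34187458-34187487 (plus strand). *Psmb8* lies in the same cluster and held no exact match to the X2 element or Y box in its window. It held a GAS instead, shown at chr17:34198088-34198117 (plus strand). *Tapbp* held 2 Y boxes, and *Psmb10* held no exact match to any of the 5 motifs.
Tap1 X2 element: cccagagacaggTGACGacagagggtcctg
Psmb8 GAS: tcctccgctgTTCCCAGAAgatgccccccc

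The setting of strand in the counting is not given in the sources used here, so reads from the overlap of *Tap1* and *Psmb9*, like those from the overlap of *Nlrc5* and its neighbour, cannot be told apart. *Tapbp* and *Zbtb22* lie on the same strand, so strand does not separate the reads of their overlap under any setting.

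**Figure D2:**
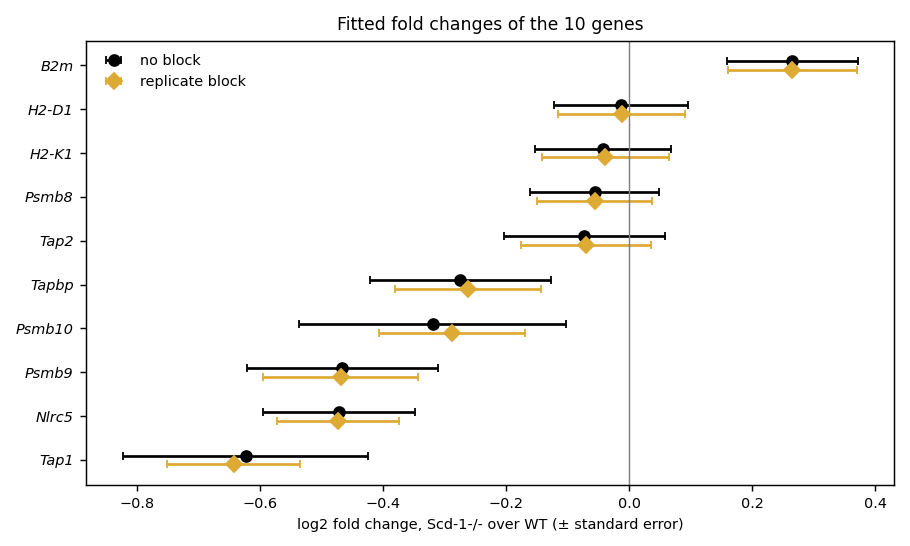
Log2 fold change of the 10 genes, Scd-1-/- over WT, with its standard error, in the fit without a block (black circles) and with the replicate number as a block (yellow diamonds). Values run from -0.62 for *Tap1* to 0.26 for *B2m*, and the block narrowed the error of *Tap1* while it left the values almost in place.

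The constitutive subunits give each immunosubunit a partner to be read against. Their own log2 fold changes were small and none passed a threshold: -0.02 for *Psmb5*, 0.01 for *Psmb6* and 0.09 for *Psmb7*. *Psmb9*/*Psmb6* was 0.469, 0.424 and 0.396 in WT and 0.401, 0.290 and 0.247 in Scd-1-/-. Scd-1-/- replicate 1 lay just above WT replicate 3, and the ratio was lower in each of the 3 same-numbered pairs. The log2 difference was -0.48, with p = 0.2 in the exact permutation test (0.3 after adjustment over the 3 ratios).

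*Psmb10*/*Psmb7* was 1.48, 2.25 and 1.83 in WT and 1.44, 1.53 and 1.27 in Scd-1-/-, a log2 difference of -0.37 with p = 0.2 in the exact permutation test (0.3 after adjustment). Without WT replicate 2 this difference was -0.22, and within same-numbered pairs it was -0.03, -0.56 and -0.53. *Psmb8*/*Psmb5* was 1.49, 0.951 and 1.04 in WT and 1.40, 0.938 and 1.02 in Scd-1-/-, a log2 difference of -0.04 with p = 0.7 in the exact permutation test (0.7 after adjustment). For *Psmb8*/*Psmb5*, replicate 1 of both genotypes stood well above replicates 2 and 3, and *Psmb5* was at 136 and 141 FPKM in those libraries and between 208 and 231 FPKM in the others. Without WT replicate 1, in a comparison that kept Scd-1-/- replicate 1, the difference in *Psmb8*/*Psmb5* was 0.15. Within same-numbered pairs it was -0.08, -0.02 and -0.03.

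**Figure D3:**
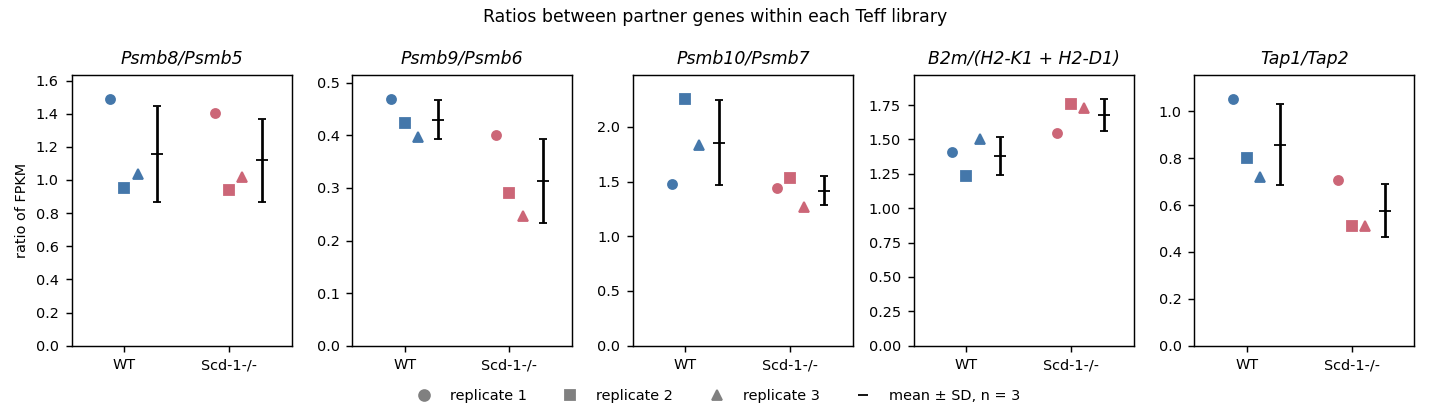
Ratio of FPKM (vertical axes, from 0) between partner genes in each library, with a symbol for each replicate number and black bars for the mean ± SD of 3 libraries. The groups are apart for *B2m*/(*H2-K1* + *H2-D1*) and *Tap1*/*Tap2*, and overlap for the 3 pairs of immunosubunit and constitutive subunit.

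Around the 10 genes, the rest of the machinery was tested as lists. Of the 12 other class I and class I-like chains that reached the minimum, 10 had a log2 fold change below 0 and 2 above, with a median of -0.15. None passed either call rule. *H2-T24* was at 1.90, 2.55 and 1.65 FPKM in WT and at 0.649, 1.075 and 1.25 FPKM in Scd-1-/-, a log2 fold change of -1.01 with an edgeR adjusted p of 0.365. *H2-Q6*, with the highest mean FPKM of those named from this list (264 in WT and 252 in Scd-1-/-), was at -0.05 (edgeR adjusted p = 0.949). *H2-Q10* was at 0.35 (edgeR adjusted p = 0.705), above its same-numbered WT library in all 3 pairs, and at 0.21 without WT replicate 2 and 0.086 without Scd-1-/- replicate 1. *H2-Q7* (-0.16), *H2-T22* (-0.39), *H2-T23*, which encodes Qa-1 (-0.30), and *H2-M3*, which presents formylated peptides (-0.38), had edgeR adjusted p values from 0.536 to 0.859. *H2-T22*, *H2-T23*, *H2-M3* and *H2-T24* were below the same-numbered WT library in all 3 pairs, whereas *H2-Q6* and *H2-Q7* were not. The groups did not overlap for *H2-M3* and *H2-T24*, as for 7.66% of all genes in that direction. Without Scd-1-/- replicate 1, *H2-Q7* was at -0.31, *H2-T22* at -0.60 and *H2-T23* at -0.47. *H2-Q7* was also at -0.015 without WT replicate 1, at -0.31 without WT replicate 3, at -0.091 without Scd-1-/- replicate 2 and at -0.10 without Scd-1-/- replicate 3, and *H2-M3* was at -0.23 without WT replicate 1.

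Of 12 loading chaperones and trimming enzymes, 5 were above 0 and 7 below, with a median of -0.03 and none called. *Tapbpl*, a relative of tapasin, was at -0.53 ± 0.282 (edgeR adjusted p = 0.586), *Calr* at 0.06, *Pdia3* at 0.35 and the trimming enzyme *Erap1* at -0.01. Single libraries weighed on these values: *Tapbpl* was at -0.81 without WT replicate 1 and at -0.29 without WT replicate 2, and *Pdia3* was at 0.21 without WT replicate 1, at 0.59 without Scd-1-/- replicate 1 and at 0.14 without Scd-1-/- replicate 3. *Calr* and *Erap1* changed sign when single libraries were left out. *Npepps*, a cytosolic aminopeptidase, was at -0.59 with an adjusted p of 0.277, and at 0.0345 with the replicate block.

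The shared part of the proteasome was close to the median of all genes. The median log2 fold change was 0.02 for the 11 shared 20S core subunits, 0.04 for the 18 subunits of the 19S particle and -0.05 for the 9 activators and assembly chaperones. None was called in any of these lists. *Psme1* and *Psme2*, the interferon-responsive PA28 subunits, were at -0.20 and 0.03. *Psme1* was at -0.33 without WT replicate 1 and at -0.092 without WT replicate 2, and *Psme2* changed sign when single libraries were left out.

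**Figure D4:**
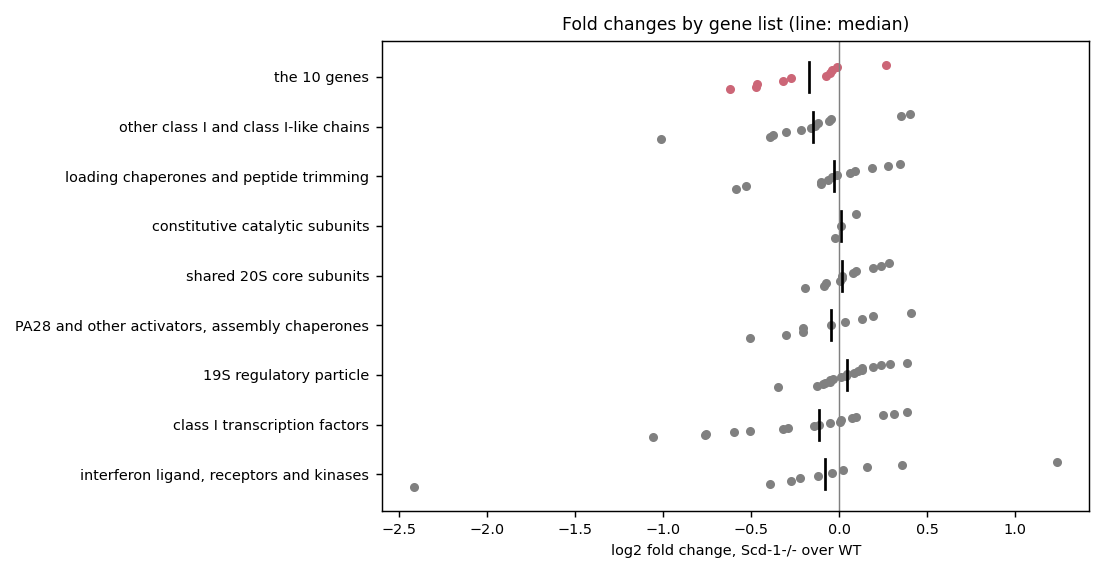
Log2 fold change, Scd-1-/- over WT, of each tested gene in the 10 genes (red) and 8 lists of related genes (grey), with the median of each list as a black line. The medians lie between -0.17 and 0.04, and the widest spread is in the interferon ligand, receptors and kinases.

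Upstream of the class I genes, the transcription factors had a median log2 fold change of -0.12 over 17 tested genes, 10 below 0 and 7 above. None was called without the block. *Irf1*, an interferon-induced activator of class I genes, was at 11.8, 20.003 and 14.7 FPKM in WT and at 7.83, 10.5 and 8.74 FPKM in Scd-1-/-. Every Scd-1-/- library was below every WT library.

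The log2 fold change of *Irf1* was -0.76 ± 0.217 (edgeR adjusted p = 0.278). With the replicate block, *Irf1* (adjusted p = 0.0188) and *Irf9* (0.0441) were called by the adjusted p in edgeR's test. *Stat2* was at -0.76 (adjusted p = 0.273, and 0.0806 with the block) and *Nfya*, a subunit of the Y box factor, at -0.51 (0.277 and 0.0512). *Rfx5*, part of the X box complex, was at -0.12, and *Ciita*, the class II transactivator related to *Nlrc5*, had between 1 and 8 counts in each library and fell under the minimum.

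Of the 10 genes for the interferon ligand, receptors, kinases and their inhibitors, 4 were above 0 and 6 below, with a median of -0.08 and none called. *Ifng* was at 17.2, 3.13 and 2.68 FPKM in WT and at 30.9, 11.6 and 11.7 FPKM in Scd-1-/-. Replicate 1 was the highest library of both genotypes and the groups overlapped. The log2 fold change was 1.24 ± 0.759 (edgeR adjusted p = 0.650), and with the block it was 1.57 with an adjusted p of 0.0232, a call that 2.64% of all genes received in that direction. Without the block, it was 2.67 without WT replicate 1, 0.83 without WT replicate 3 and 0.60 without Scd-1-/- replicate 1.

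*Ifngr1*, the ligand-binding chain of the receptor, was at 0.36 (edgeR adjusted p = 0.737), and at 0.73, 0.22 and 0.18 without WT replicates 1, 2 and 3 in turn and 0.21 without Scd-1-/- replicate 1. *Ifngr2*, the signalling chain, was at 1.15, 3.21 and 2.61 FPKM in WT and at 0.275, 0.364 and 0.630 FPKM in Scd-1-/-. Its log2 fold change was -2.42 ± 0.476, with an edgeR adjusted p of 0.1199 and of 0.00890 with the block. The groups did not overlap for *Ifngr2*.

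**Figure D5:**
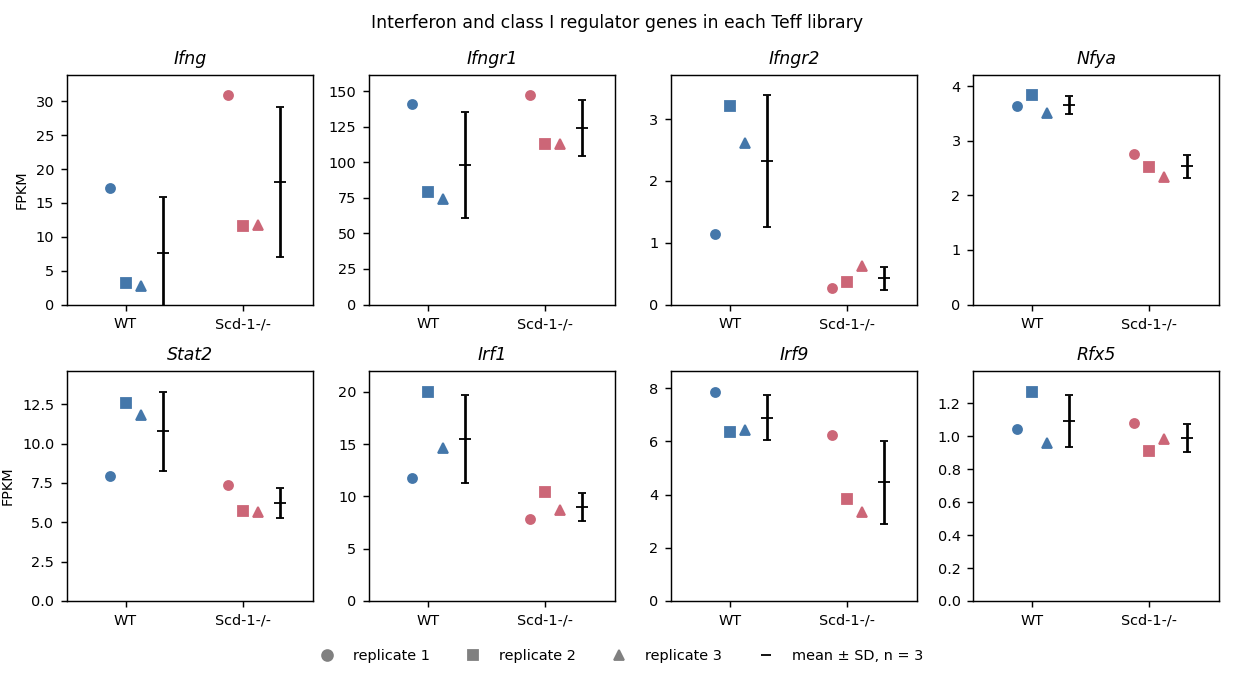
FPKM (vertical axes, from 0) of 8 interferon and class I regulator genes in each library, with a symbol for each replicate number and black bars for the mean ± SD, cut at 0 for *Ifng*. *Nfya*, *Stat2*, *Irf1*, *Irf9* and *Ifngr2* are lower in each Scd-1-/- library than in any WT library (on the TMM-scaled CPM, *Irf9* overlaps), whereas *Ifng* is highest in replicate 1 of both genotypes.

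Within the 6 libraries, the 10 genes did not all vary together. The mean of their standardised log2 CPM was highest in WT replicate 2, at 0.99, and lowest in Scd-1-/- replicate 3, at -0.65. *Psmb9* followed this mean most closely (Pearson r = 0.936 over 6 libraries) and *B2m* ran against it (r = -0.849). The genes outside the 10 with the most similar pattern were *Trappc4*, *Csk*, *Rnf31*, *Maz* and *A430078G23Rik*, with r between 0.976 and 0.980. These are descriptions over 6 libraries that share genotype and replicate structure, and each of the 10 genes is part of the mean.

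Markers of other cells were low. The summed FPKM of 5 B cell markers was 9.41 to 10.7 in WT and 3.13 to 7.99 in Scd-1-/-, nearly all from *Cd79b*, with *Ms4a1* and *Pax5* at 0 in every library. That of 6 myeloid markers was 8.43 to 19.6 and 10.5 to 36.1, from *Cd68* and *Itgax*, with *Adgre1* at 0. That of 4 NK markers was 0.501 to 1.16 and 1.82 to 9.39, mostly *Klrb1c*. With the block, *Cd79b* (adjusted p = 0.0434), *Itgax* (0.00591) and *Klrb1c* (0.00591) were called in edgeR's test, and without it none of the 3. Of 2 CD4 T cell and 4 erythroid markers, none reached the minimum. *Cd8a* was at 43.2, 47.6 and 47.05 FPKM in WT and at 36.6, 27.9 and 33.7 FPKM in Scd-1-/-. The part of these differences in the levels of *Tap1*, *Nlrc5*, *Psmb9* and *B2m* was not tested.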

How the data were processed

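RNA-seq of CD8+ Teff cells was analysed in 3 WT and 3 Scd-1-/- libraries, grouped by the sample titles. The authors mapped reads with HISAT2 and counted them with StringTie 1.3.0, on GRCm38 per the labels. They deposited raw counts per gene and an FPKM value for each of 34745 genes.

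The members and lists were chosen with earlier results of these data known. The 9627 genes whose mean FPKM reached 1 were tested on the counts with edgeR 4.0.16 (quasi-likelihood test, TMM scaling, R 4.3.3), without a block. Calls were a log2 fold change of 1 or more in either direction and p under 0.001, or a Benjamini-Hochberg adjusted p under 0.05 over all genes tested. SE is the log2 fold change divided by the root of F. Genes under the minimum were fitted among the 17192 genes that had any count. Ratios of FPKM and summed counts were compared by exact two-sided permutation tests. Named genes were the 10 members, *Scd1*, genes of a list past either call rule and a few named for their role. Others (*H2-T24*, *H2-Q6*, *H2-Q10*, *Npepps*, *Irf9*, *Stat2*, *Nfya*, *Ifngr2*) were chosen after their values were seen.

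Depth was 14034479 to 15866216 counts, and a count of 0 allows up to 3 counts, which covers counting error only. Libraries of a group differed beyond sampling noise (chi-square per degree of freedom from 12.2 to 62.1), so none was a duplicate.

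Pairing by replicate number was checked with correlations of the deviations from the group means across genes. Same-numbered libraries had r of 0.630, 0.335 and 0.507, all over 0.1, and the numbers were taken as pairing them. Only replicate 1 stood clearly apart: WT replicate 3 had r of 0.443 with Scd-1-/- replicate 2, and WT replicate 2 had r of 0.194 with Scd-1-/- replicate 3. This comes from the data alone, since the labels do not say what a number stands for. Values with the block are printed only where a call changes.

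Alternatives were no FPKM minimum and a minimum of 5, median-ratio and upper-quartile scaling, DESeq2 1.42.0, limma 3.58.1 on log2(FPKM + 1) and log2(FPKM + 0.1), a robust fit, the replicate block, replicates 2 and 3 alone, and leaving out each library. Positions are from GENCODE on GRCm38 and promoters from RefSeq (GRCm38.p6), where *Tap2* and *Nlrc5* had no match. Identity was computed with edlib on the longest open reading frame. Scripts were tested on simulated data. Some genes of the lists are not reported here by name.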

Additional observations from a re-analysis of the deposited data

How the results depend on the processing

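With a count of 71 genes past the thresholds of the study, the other settings gave 148 with no FPKM minimum, 42 with a minimum of 5, 161 with DESeq2, 184 with the replicate block and 369 with replicates 2 and 3 alone. Leaving out a library gave 25 to 163: 143 without WT replicate 1, 25 without WT replicate 2, 25 without WT replicate 3, 163 without Scd-1-/- replicate 1, 31 without replicate 2 and 26 without replicate 3. For an adjusted p under 0.05, 11 genes became 84 with no minimum, 266 with DESeq2, 17 with limma on log2(FPKM + 1), 452 with the replicate block and 1213 with replicates 2 and 3 alone, and 2 to 182 on leaving out a library (133, 3 and 3 without WT replicates 1, 2 and 3, and 182, 6 and 2 without Scd-1-/- replicates 1, 2 and 3). Of the 10 genes, none passed the thresholds of the study in the fit reported or in its 16 alternatives. By adjusted p, 1 was called with DESeq2 (*Nlrc5*), 2 with the replicate block (*Tap1* and *Nlrc5*) and 4 with replicates 2 and 3 alone (*Tap1*, *Psmb9*, *Nlrc5* and *Tapbp*), and 0 in each fit without a library. The block changed no other call on the 10 genes, and the cause of these moves was not tested.

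Fold changes near 0 turned sign. *Psmb8*/*Psmb5* ran from -0.22 to 0.15 without each library. The leave-one-out range was -0.11 to 0.0030 for *H2-K1*, -0.064 to 0.025 for *H2-D1*, -0.15 to 0.0065 for *Tap2*, -0.21 to 0.14 for *Psmb5*, -0.098 to 0.12 for *Psmb6*, -0.039 to 0.21 for *Psmb7*, -0.082 to 0.17 for *Psme2*, -0.19 to 0.22 for *Erap1*, -0.19 to 0.27 for *Calr*, -0.11 to 0.078 for *H2-Q6* and -0.21 to 0.0062 for *Rfx5*. *H2-D1* was at 0.0026 and *Erap1* at 0.00021 with upper-quartile scaling, and *Psmb6* was at -0.0026 with no minimum, at -0.0087 in both limma fits and at -0.024 with replicates 2 and 3 alone, where *Erap1* was at 0.077 and *H2-Q6* at 0.015. The sign of *Tap1*, *Nlrc5*, *Psmb9* and *B2m* held in every alternative. Their groups did not overlap, so leaving out libraries or adding the block could hardly have turned it, and this is no separate support.

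With 3 libraries a group, an exact permutation test cannot go below 0.1.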
